A study of Mus musculus with 20 samples.

Results

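The genes Cebpa, Cebpb and Cebpd encode 3 members of the CCAAT/enhancer binding protein (C/EBP) family, and the chromatin around them was followed while 3T3-L1 cells became adipocytes. Their loci were taken as fixed mm9 windows: 150 kb around Cebpa (chr7:35850000-36000000), 200 kb around Cebpb (chr2:167450000-167650000) and 180 kb around Cebpd (chr16:15800000-15980000). Every peak that touched a window by at least 1 bp was a member, which gave 242 of the 284878 peaks in 19 lists (0.0849%). Cebpa had 48 of them, Cebpb 141 and Cebpd 53, and 1 member crossed the edge of its window.

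3T3-L1 is an established mouse preadipocyte line. After confluence (day 0) the cells received dexamethasone, insulin, 3-isobutyl-1-methylxanthine (IBMX) and fetal bovine serum. From day 2 they had insulin and serum, and later serum alone. Open chromatin was mapped by DNase I hypersensitive site sequencing (DHS-seq) on day 0, at 2 hours, at 4 hours and on days 1, 2 and 6. Chromatin immunoprecipitation sequencing (ChIP-seq) covered C/EBPbeta on day 0, at 2 hours, at 4 hours and on day 2, and C/EBPdelta on day 0 and at 4 hours. It also covered the glucocorticoid receptor (GR), Stat5a and RXR at 4 hours, PPARgamma on days 2 and 6, and RNA polymerase II (RNA Pol II) on day 0 and at 4 hours. Each group is 1 library of the same line, so no test against replicate spread could be made. A region "gained" by a time is listed then and was missing from the earlier list, and "lost" is the reverse.

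The family works as a relay in textbook accounts of fat cell formation. C/EBPbeta and C/EBPdelta are made within hours of induction, and C/EBPalpha comes later together with PPARgamma, the nuclear receptor that drives fat cell genes. Each protein binds DNA as a dimer through a basic leucine zipper, and the genes carry their coding sequence in a single exon. IBMX raises cyclic AMP, which acts through CREB and ATF factors, and dexamethasone activates GR.

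RefSeq promoter sequences (build GRCm38.p6, from 250 bases before to 50 bases after the annotated start) matched 2 of the 3 genes, with none for Cebpd. A link between these sequences and the RNA Pol II or DHS peaks was not tested. Capitals mark the matches found, and positions count the leftmost base from the annotated start. The motifs searched, on both strands, were the cyclic AMP response element half-site TGACG, the C/EBP site TTGCNNAA, the Stat site TTCNNNGAA, the glucocorticoid response element (AGAACA and TGTTCT with 3 bases between), the DR1 element of PPAR and RXR pairs (AGGTCA repeated after 1 base), and the TATA box TATAAA. The positions below belong to GRCm38.p6 and cannot be set against the mm9 peaks.
Cebpb, chr2:167688665-167688964, plus strand: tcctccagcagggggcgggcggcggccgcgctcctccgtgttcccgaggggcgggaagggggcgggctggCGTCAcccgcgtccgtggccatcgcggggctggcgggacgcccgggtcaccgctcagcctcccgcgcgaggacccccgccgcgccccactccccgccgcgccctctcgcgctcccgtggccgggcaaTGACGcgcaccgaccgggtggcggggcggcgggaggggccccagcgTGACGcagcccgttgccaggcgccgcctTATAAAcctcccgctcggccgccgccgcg
Cebpa, chr7:35119043-35119342, plus strand: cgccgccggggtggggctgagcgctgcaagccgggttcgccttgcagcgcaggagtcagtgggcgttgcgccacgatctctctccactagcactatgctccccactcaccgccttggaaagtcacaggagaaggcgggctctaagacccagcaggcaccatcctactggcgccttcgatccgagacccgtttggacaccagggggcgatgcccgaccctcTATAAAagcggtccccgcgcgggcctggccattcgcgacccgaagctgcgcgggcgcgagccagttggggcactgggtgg
The Cebpb sequence held 3 cyclic AMP half-sites, at -180, -53 and -7. Its match to the TATA box letters was at 22, after the annotated start, and is given as a letter match only. The Cebpa sequence held none of the half-sites and a TATA box at -30. Of 32851 promoters of 300 bases, 20.8% held at least 1 half-site and 13.6% a TATA box. These shares were not matched for GC content or for the number of matches. Neither sequence held the C/EBP site (10.8% of promoters), the Stat site (8.30%), the glucocorticoid element (0.00913%) or the DR1 element (0.0396%). GC content was 80.7% for Cebpb and 67.3% for Cebpa, against a median of 52.7%.

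The 3 windows differed in which lists had peaks in them. Cebpb had a peak in all 19 lists. Cebpa and Cebpd each had peaks in 14 lists and none in 5, and the missing lists were not the same. Cebpa had no peak of DHS at 2 hours, C/EBPdelta on day 0, GR, Stat5a or RXR. Tiles of the same length without a peak made up 61.7% for DHS at 2 hours and 84.6% for C/EBPdelta on day 0. They made up 79.6% for GR, 68.2% for Stat5a and 87.4% for RXR, so such absence is common. Cebpd had none of C/EBPbeta on day 2, C/EBPdelta on day 0, RXR or PPARgamma on either day. Tiles of its length without a peak made up 37.4% for C/EBPbeta on day 2, 82.8% for C/EBPdelta on day 0 and 86.1% for RXR. For PPARgamma they made up 80.9% on day 2 and 72.6% on day 6.

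**Figure D1:**
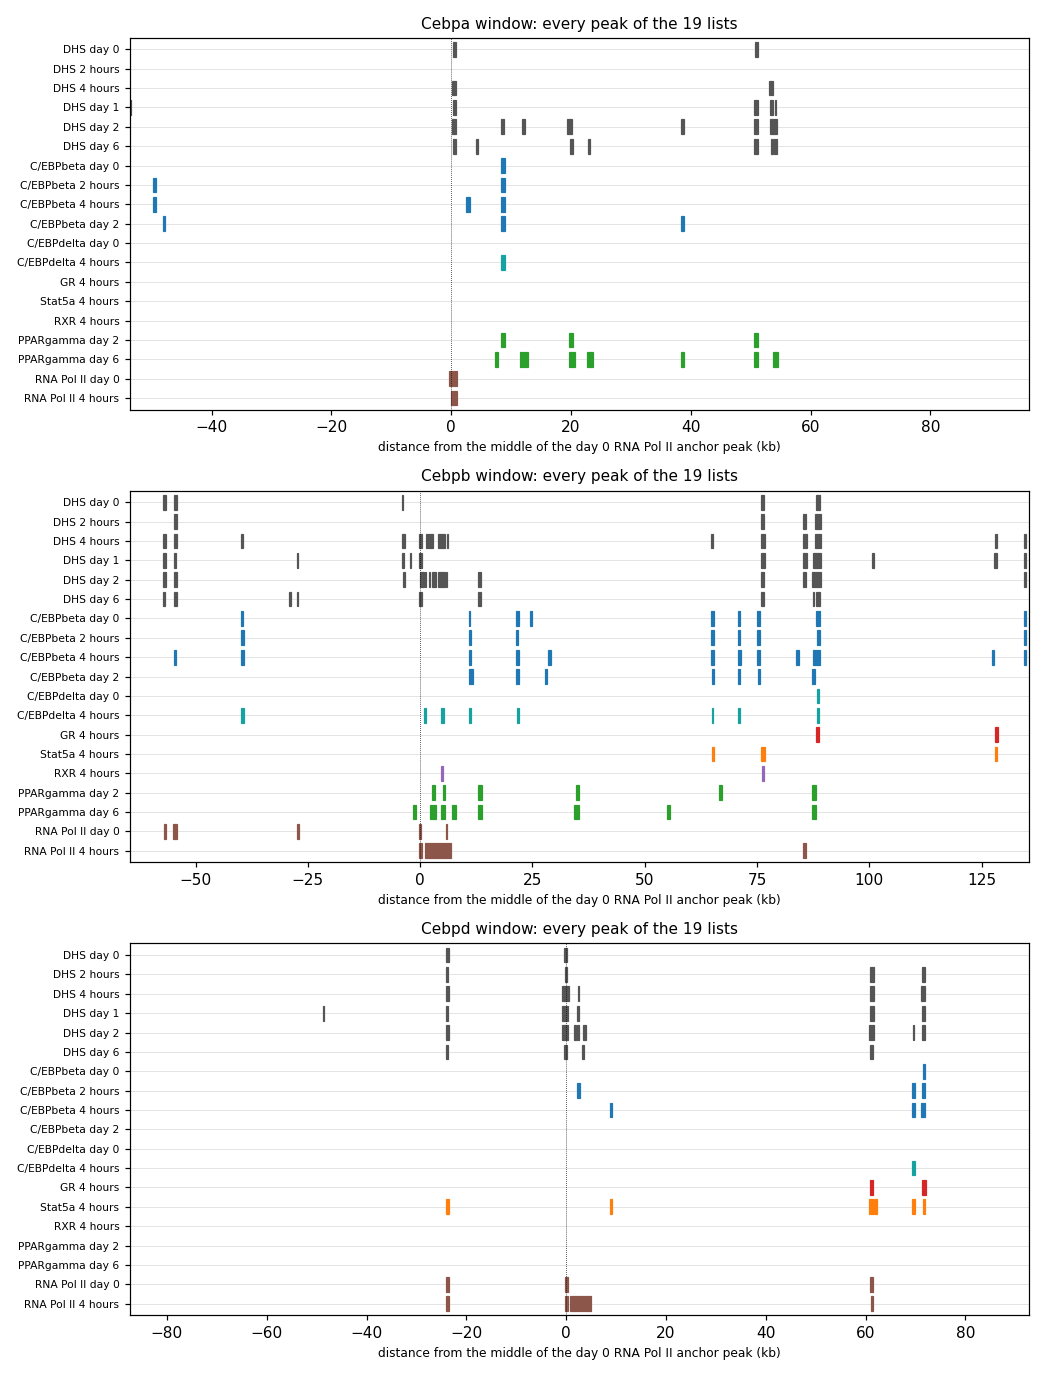
Every peak of the 19 lists in the 3 windows, drawn to scale along the distance in kb from the middle of the day 0 RNA Pol II anchor peak, with a thin outline that keeps narrow peaks visible; 1 row per list, 1 library each. Green PPARgamma peaks are in the Cebpa and Cebpb panels and absent from Cebpd, and the 4 hours RNA Pol II row of Cebpb and Cebpd extends to the right of the anchor peak. At Cebpb another day 0 RNA Pol II peak lies farther right, so the side there follows from the choice of anchor peak.

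The lists differ greatly in length, so each count was set beside its whole list and beside all tiles of the same length that hold at least 1 peak of any list (12794 tiles for Cebpa, 10255 for Cebpb and 11107 for Cebpd). These shares describe density only. PPARgamma on day 6 had 7 peaks in the Cebpa window, or 4.67 per 100 kb against 0.208 over its list, and 0.242% of tiles held as many. It had 8 peaks in the Cebpb window (0.234% of tiles) and 0 in the Cebpd window, as did 72.6% of tiles. Stat5a, which relays cytokine and growth hormone signals, had 6 peaks at Cebpd (0.729% of tiles), 3 at Cebpb (8.14%) and 0 at Cebpa. Open chromatin at 4 hours had 17 peaks at Cebpb (0.224% of tiles), 5 at Cebpd (25.3%) and 2 at Cebpa (53.2%). By number of peaks, Cebpb thus stood among the densest tiles at 4 hours, and Cebpa did not. The 17 peaks are not all separate sites, as some are adjacent, such as chr2:167518540-167519675 and chr2:167519684-167520021. For open chromatin at Cebpb, 3.45% of tiles held as many peaks on day 0, 5.71% at 2 hours and 0.224% on day 2.

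Over time, the number of DHS peaks in the Cebpa window was 2 on day 0, 0 at 2 hours, 2 at 4 hours, 5 on day 1, 8 on day 2 and 7 on day 6. For Cebpb the numbers were 5, 4, 17, 13, 15 and 9 in the same order. For Cebpd they were 2, 4, 5, 6, 8 and 4. The whole lists hold 9989, 9055, 31751, 35389, 25097 and 11936 peaks. The day 6 count at Cebpa was therefore high for a short list (0.703% of tiles held as many), whereas its 4 hours count was common for a long one (53.2%). The 9 peaks of Cebpb on day 6 were a rarer count still (0.419% of tiles). The 7 peaks of Cebpa and 9 of Cebpb on day 6 lay in 6 and 8 merged DHS regions.

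C/EBPbeta had 9, 8, 13 and 7 peaks at Cebpb on day 0, at 2 hours, at 4 hours and on day 2. It had 1, 2, 3 and 3 at Cebpa and 1, 3, 3 and 0 at Cebpd. At 4 hours, 1.80% of tiles held as many as Cebpb, 35.7% as many as Cebpa and 39.7% as many as Cebpd. A count of 0 for C/EBPbeta on day 2, as at Cebpd, was found in 37.4% of tiles.

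**Figure D2:**
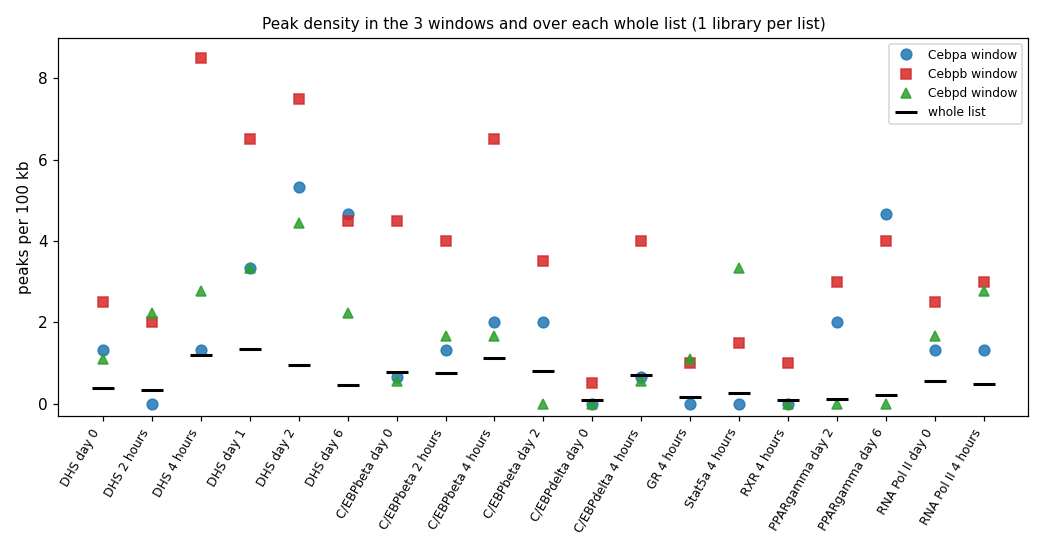
Peaks per 100 kb (vertical axis) in the Cebpa, Cebpb and Cebpd windows (points) and over each whole list (black bars), for the 19 lists along the horizontal axis, 1 library per list and so without error bars. The Cebpb window reaches 8.50 for DHS at 4 hours, and Cebpa is the highest of the 3 for PPARgamma on day 6 at 4.67.

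The first comparison asked where RNA Pol II lay before and after induction. In each window the first day 0 RNA Pol II peak, by lowest coordinate, that overlaps the longest 4 hours stretch is called the anchor peak. Distances run from its middle, positive towards higher coordinates. The anchor peaks are chr7:35903250-35903972 (Cebpa), chr2:167514295-167514863 (Cebpb) and chr16:15887061-15887694 (Cebpd). No mm9 gene model was used here, so no region is called promoter, exon or UTR. In the order of genes in RefSeq (GRCm38.p6), the nearest protein-coding neighbours are Tmem189 and Ptpn1 for Cebpb, and Gm45095 and Slc7a10, an amino acid transporter gene, for Cebpa. Cebpd overlaps Spidr. Signal beyond a short gene can therefore belong to a neighbour.

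At Cebpb, RNA Pol II of day 0 was listed at the anchor peak (569 bp) and in 1 small peak at chr2:167520332-167520612 (281 bp). At 4 hours the list held 5 peaks here, of 613, 448, 2167, 1732 and 1357 bp. With peaks up to 1000 bp apart joined, they form 1 stretch at chr2:167514297-167521476, 7180 bp long, and 6 of the 10080 such stretches of that list (0.0595%) were as long. The RefSeq gene length of Cebpb is 1518 bp.

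Cebpd also had a long stretch at 4 hours. Day 0 had the anchor peak of 634 bp alone. At 4 hours, peaks of 686, 3483 and 571 bp formed a stretch at chr16:15887149-15892299, 5151 bp long, and 28 of 10080 stretches (0.278%) were as long. Its middle peak, chr16:15888216-15891698, was among the widest 0.167% of the 4 hours list, and the RefSeq length of Cebpd is 2260 bp. Both stretches were found after the peaks had been seen.

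At Cebpa, RNA Pol II did not extend. Day 0 had 2 peaks of 723 and 475 bp and 4 hours had 2 peaks of 418 and 484 bp. Joined, they spanned 1356 bp on day 0 and 944 bp at 4 hours, and 31.1% of the 4 hours stretches were as long as the latter. The anchor peak of every window is a day 0 RNA Pol II peak by definition, so RNA Pol II on day 0 is not particular to Cebpa. The RefSeq gene length of Cebpa is 2636 bp.

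Merged over both lists, the 3 windows held 16 RNA Pol II regions, of which 6 were gained by 4 hours (23.3% of 18710 regions over the genome), 3 lost (35.2% over the genome) and 7 in both (41.5%). With peaks up to 500 bp apart merged 1 was gained, and with peaks set to 200 bp 5 were lost. The 6 gained were 4 at Cebpb and 2 at Cebpd. All of them except chr2:167599825-167600379 belong to the 2 stretches. The 3 lost were all at Cebpb, between -56.8 and -27.2 kb of the anchor peak. The 2 farthest, at chr2:167457508-167458008 and chr2:167459593-167460520, overlapped peaks in the DHS lists of 4 hours and of days 1, 2 and 6.

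**Figure D3:**
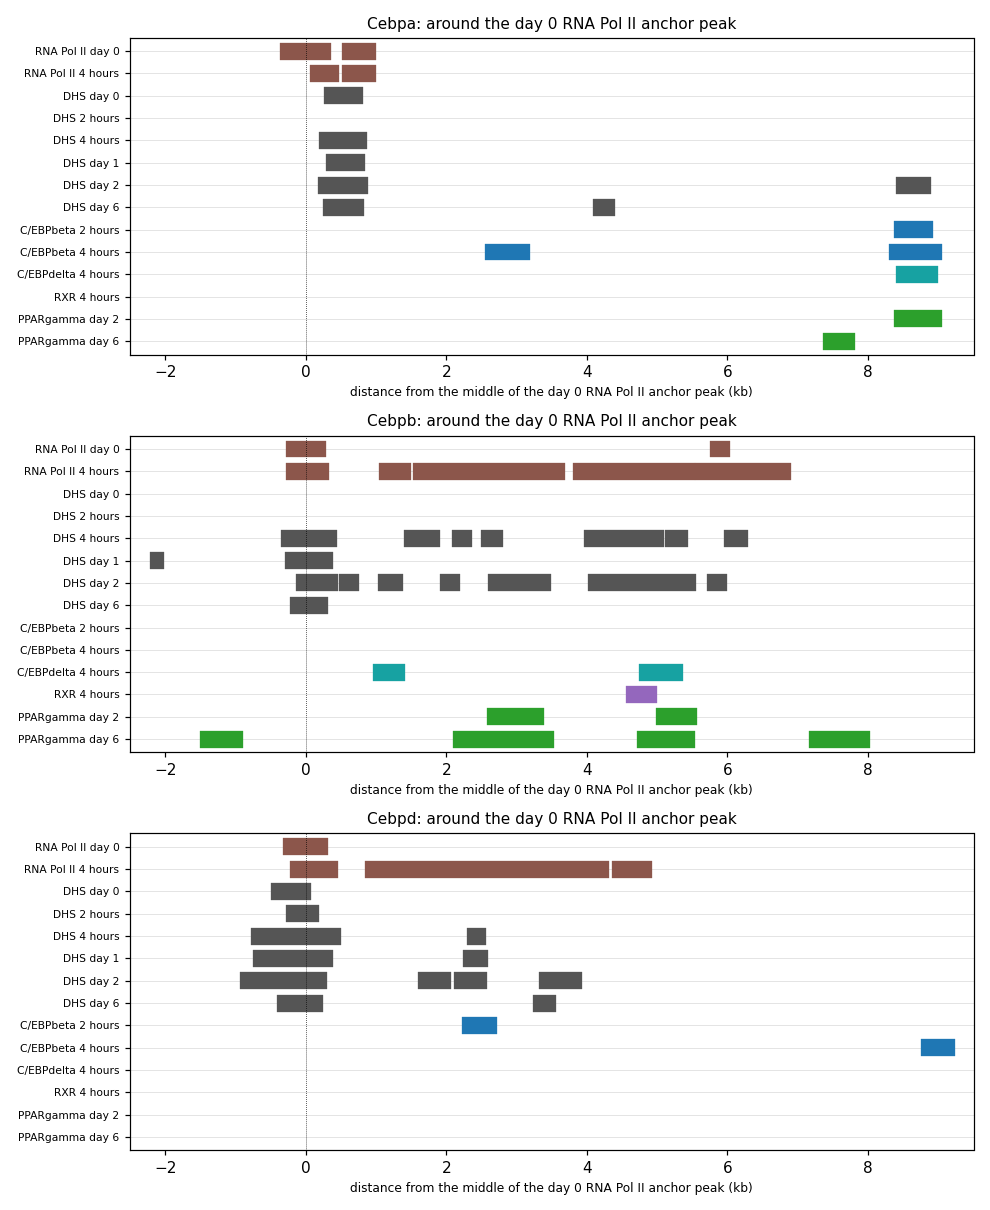
RNA Pol II, DHS and selected factor peaks close to the anchor peak at Cebpa, Cebpb and Cebpd, drawn to scale on a kb axis; each row is 1 list and 1 library. RNA Pol II of 4 hours runs to the right of the anchor peak at Cebpb and Cebpd and spans 944 bp at Cebpa. At Cebpb another day 0 peak lies farther right in the stretch, so the side there follows from the choice of anchor peak.

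Open chromatin at the anchor peaks also differed. The Cebpd anchor region, chr16:15886444-15887884, was in all 6 DHS lists. That of Cebpa, chr7:35903250-35904610, was in every DHS list except 2 hours, and the 2 hours list held no peak anywhere in the window. That of Cebpb, chr2:167514225-167515030, was in neither the day 0 nor the 2 hours list and was in those of 4 hours, day 1, day 2 and day 6. RNA Pol II was nevertheless listed there on day 0. Over the genome, 37.0% of day 0 RNA Pol II peaks lay in the day 0 DHS list, so this absence is common. In the 3 windows 6 of 10 lay in it. At 4 hours 12 of 13 RNA Pol II peaks lay in the DHS list of that time (65.5% over the genome), and 4 of 13 in that of day 0 (38.4%), none of them at Cebpb. Of the 13, 5 at Cebpb and 3 at Cebpd are parts of the 2 stretches and not separate sites. Some are far wider than the median of that list, 536 bp.

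DHS peaks along the Cebpb stretch came and went with time. Beyond the anchor region, 4 hours had 6 DHS peaks between chr2:167515976-167516482 and chr2:167520536-167520874, and day 2 had 6 between chr2:167515046-167515337 and chr2:167520294-167520568. Days 1 and 6 had the anchor region alone, and day 0 and 2 hours had no DHS peak in the stretch. The day 1 list is the longest of the 6. At Cebpd, the anchor region reaches into the stretch in all 6 lists, and DHS peaks beyond it were in the lists of 4 hours, day 1, day 2 and day 6.

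Merged over the 6 lists, the windows held 43 DHS regions: 11 at Cebpa, 23 at Cebpb and 9 at Cebpd. Those gained by 4 hours were 1 of 11 at Cebpa, 11 of 23 at Cebpb and 3 of 9 at Cebpd, against 47.2% of 46760 regions over the genome. The share at Cebpb was close to that of the genome, and those at Cebpa and Cebpd were lower. With all lists shortened to the same length by width these counts were 0, 3 and 0. They thus depend on this setting, which changes list length and also keeps only the widest peaks. At Cebpb the count was 6 with peaks up to 500 bp apart merged and 4 with only the wider peaks, which gave 2 at Cebpa. The 1 region lost by 4 hours (1.29% over the genome), at chr7:35954189-35954884 in the Cebpa window, was listed again on days 1, 2 and 6. At equal list length 5 regions were lost in the 3 windows and 3 gained, the reverse direction. Lists of equal length bring gained and lost near balance over the genome by construction, so no direction is read from these few regions.

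Regions first listed on day 2 or day 6 were 7 of 11 at Cebpa, 4 of 23 at Cebpb and 3 of 9 at Cebpd, against 10.5% over the genome. Of those at Cebpa, chr7:35923009-35923450 and chr7:35923455-35923926 are adjacent and met the same PPARgamma peak, and several were in the day 2 list alone. No alternative setting was run for these counts, so their dependence on merging and list length was not tested. All 7 at Cebpa lie between chr7:35907698-35908013 and chr7:35942023-35942524, on 1 side of the anchor peak. The Cebpa window reaches farther on that side. Of the 11 regions gained by 4 hours at Cebpb, 1 was already listed at 2 hours, 4 were listed on day 1, 7 on day 2 and 1 on day 6. All 3 at Cebpd were listed on days 1 and 2, and 1 on day 6. Regions gained by day 6 relative to day 0 were 4 of 11 at Cebpa, 4 of 23 at Cebpb and 2 of 9 at Cebpd (9.55% over the genome). Regions in all 6 lists (8.76% over the genome) numbered 0 at Cebpa, 3 at Cebpb and 2 at Cebpd.

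The second comparison followed the C/EBP proteins at the genes of their own family. Of 15 C/EBPbeta regions at Cebpb, 5 were in all 4 lists (22.5% over the genome), 5 were gained by 4 hours (36.3%) and 1, chr2:167539040-167539449, was lost (13.5%). The gained count was 3 with only the wider peaks kept and 1 at equal list length, and the lost count over the 3 windows was then 0 and 2. The 5 constant regions lie at chr2:167525363-167526391, chr2:167535901-167536582, chr2:167579306-167580053, chr2:167585389-167585902 and chr2:167589580-167590240, from 11.3 to 75.3 kb of the anchor peak. The third of them was in the 4 hours DHS list, and the other 4 were in no DHS list at any time. C/EBPdelta was listed at 4 of the 5 at 4 hours and at none of them on day 0. Over the 3 windows 9 of 10 C/EBPdelta regions were gained by 4 hours (86.3% over the genome), with a day 0 list of 2581 peaks against 18327.

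No C/EBPbeta peak of any time touched the Cebpb anchor region or the RNA Pol II stretch beside it. C/EBPdelta had 2 peaks within the stretch at 4 hours, chr2:167515531-167515991 and chr2:167519318-167519942, the latter together with RXR. They were the C/EBPdelta peaks of Cebpb without C/EBPbeta. In the 3 windows 8 of 10 C/EBPdelta peaks at 4 hours lay in the C/EBPbeta list, against 83.6% over the genome. In the other direction 8 of 19 C/EBPbeta peaks lay in the C/EBPdelta list (50.8%). RNA Pol II, DHS, C/EBPdelta, RXR and PPARgamma were all listed in this stretch. An input list was not used here, so the part of general enrichment in these peaks was not tested.

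At Cebpa, C/EBPbeta was in all 4 lists at 1 of 5 regions, chr7:35911868-35912656, 8.7 kb from the anchor peak. C/EBPdelta was there at 4 hours, and DHS and PPARgamma on day 2, but neither was listed there on day 6. Only 6 of the 77867 union regions of the series had this set of lists. C/EBPbeta at 4 hours alone was listed nearer the anchor peak, at chr7:35906167-35906804 (2.9 kb), in no DHS list. The 2 regions gained by 4 hours at Cebpa were this one and chr7:35853806-35854321. With only the wider peaks kept, and at equal list length, 1 was gained.

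At Cebpd, C/EBPbeta had 4 regions and none in all 4 lists. At 2 hours it was listed inside the later RNA Pol II stretch, at chr16:15889596-15890098, and in no other C/EBPbeta list there. The remaining ones were chr16:15896133-15896620 at 4 hours with Stat5a, chr16:15956719-15957312 at 2 and 4 hours, and chr16:15958560-15959254 on day 0, at 2 hours and at 4 hours. On day 2 none was listed.

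C/EBPbeta peaks in these windows were mostly outside the DHS lists of their time. On day 0, 1 of 11 lay in the DHS list of that day (15.5% over the genome), and at 4 hours 6 of 19 did (45.6%). Of the same 19, 2 lay in the day 0 DHS list (9.90%). For C/EBPdelta at 4 hours it was 5 of 10 (48.9%). These shares are close to those of the whole lists or below them.

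The third comparison took the 5 factors mapped at 4 hours together, both C/EBP proteins with GR, RXR and Stat5a. None of the 26 regions of the windows held all 5 (2.65% over the genome), and 4 held at least 3 (15.7%). The 4 were 2 of 17 at Cebpb and 2 of 6 at Cebpd, with 0 of 3 at Cebpa. With only the wider peaks kept, or at equal list length, all of these counts were 0.

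The Cebpd sites lay close together. At chr16:15948037-15949023, 61.2 kb from the anchor peak, GR and Stat5a were listed with DHS from 2 hours to day 6 and RNA Pol II on day 0 and at 4 hours, with no C/EBP factor. Stat5a had a further peak beside it, chr16:15949329-15949674. At chr16:15956678-15957312 (69.6 kb) both C/EBP factors and Stat5a were listed, with DHS on day 2 alone. At chr16:15958543-15959553 (71.7 kb) C/EBPbeta, GR and Stat5a were listed, with DHS from 2 hours to day 2. The DHS list of day 0 had none of the 3, and that of 2 hours had the first and the last. Over all DHS regions, those listed at 2 hours and missing on day 0 were 2 of 9 at Cebpd and 3 of 43 in the 3 windows (6.98%), close to the 7.67% of the genome. A further Stat5a peak lay at chr16:15863260-15863817, -23.8 kb from the anchor peak, in a region of all 6 DHS and both RNA Pol II lists.

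GR, the dexamethasone receptor, had 4 peaks in all. The Cebpb ones were chr2:167602601-167603395 with C/EBPbeta and C/EBPdelta, and chr2:167642486-167643209 with Stat5a. All 4 GR peaks lay in the 4 hours DHS list (75.9% over the genome), and 2 of 4 lay in the C/EBPbeta list (91.7%). Of 9 Stat5a peaks, 6 lay in the 4 hours DHS list (49.1%) and 4 in the C/EBPbeta list (64.8%). The 2 RXR peaks were both at Cebpb, at chr2:167519137-167519577 in the stretch and chr2:167590709-167591011 with Stat5a, and both lay in the 4 hours DHS list (72.9%).

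One region of Cebpb stood out by the number of lists. At chr2:167601701-167603878, 88.2 kb from the anchor peak, 15 of 19 lists had a peak, and 0.405% of 77867 union regions were in as many. It joins 2 neighbouring sites. The right one, chr2:167602527-167603549, held C/EBPbeta on day 0, at 2 hours and at 4 hours, C/EBPdelta on day 0 (chr2:167602818-167603438) and at 4 hours, and GR. The left one, chr2:167601701-167602688, held PPARgamma on days 2 and 6, and C/EBPbeta at 4 hours and on day 2. C/EBPbeta was thus listed on the right early, on both at 4 hours and on the left by day 2. The printed extents of the 2 sites overlap. DHS peaks of day 0, 2 hours and 4 hours began at 167602669, 167602540 and 167602546, and so covered the right site and touched only the end of the left one. Days 1 and 6 had a further DHS peak within the left site, and day 2 had 1 peak of 1991 bp across both.

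**Figure D4:**
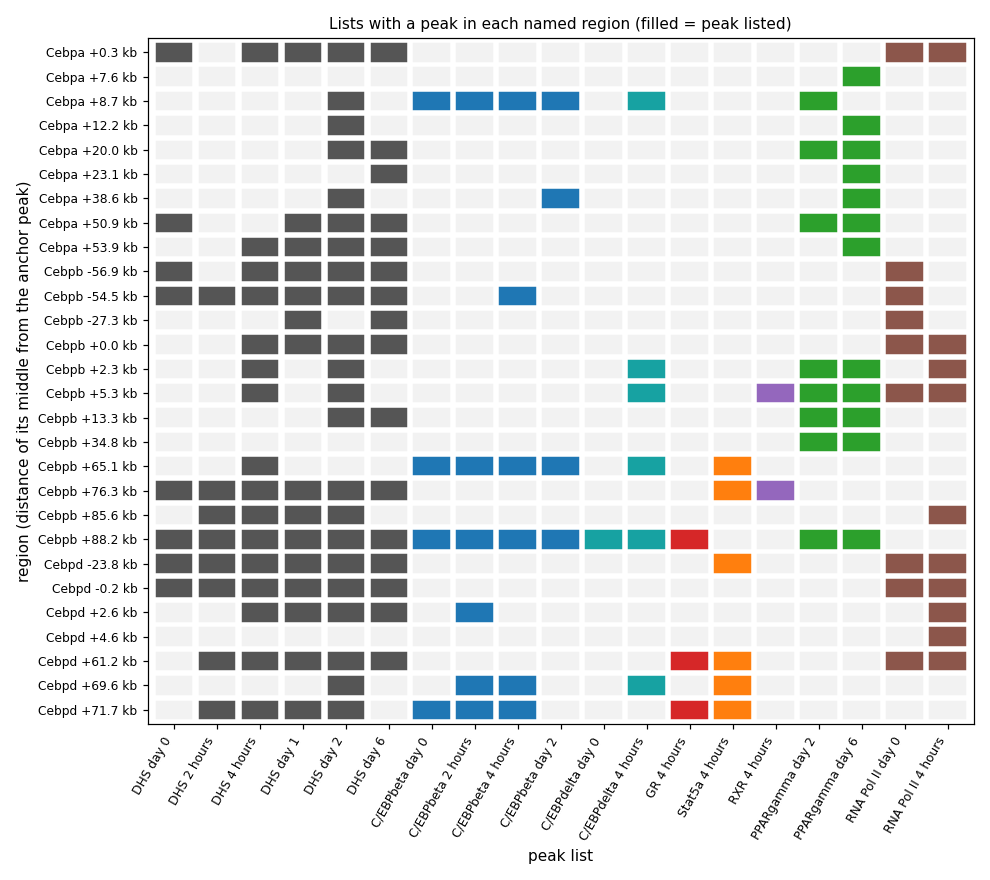
Presence (filled) or absence (pale) of a peak of each of the 19 lists (horizontal axis) in the 28 named regions (vertical axis, named by window and by the distance in kb of the region's middle from the anchor peak). Regions were chosen for RNA Pol II, PPARgamma, 3 or more factors or all 6 DHS lists, so the presence of these is fixed by the choice. The Cebpb row at +88.2 kb is filled in 15 lists.

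The last comparison concerned PPARgamma, which partners with RXR in adipocytes. The 2 lists gave 17 regions, 8 at Cebpa, 9 at Cebpb and 0 at Cebpd. Of these 15 were listed on day 6 (83.9% over the genome). Of the 8 at Cebpa, 2 were in both lists (32.2% over the genome), 5 were gained by day 6 (51.7%) and 1 was lost (16.1%). At Cebpb these counts were 5, 3 and 1. The day 6 list is the longer one (5493 peaks against 3168).

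All 8 PPARgamma regions of Cebpa lie on 1 side of the anchor peak, at 7.6 to 54.2 kb. The Cebpa window reaches farther on that side. The 2 in both lists were chr7:35923235-35924243 and chr7:35954178-35954902, the latter with DHS on days 0, 1, 2 and 6. Those of day 6 alone were chr7:35910965-35911421, chr7:35915177-35916451 (1275 bp), chr7:35926260-35927209, chr7:35941942-35942493 and chr7:35957349-35958258. All except the first of these touched a DHS peak of day 2 or day 6. On day 2, 7 of 9 PPARgamma peaks of the windows lay in the DHS list of that day (74.0%). Of the 7 PPARgamma peaks of day 6 at Cebpa, 4 lay in the day 6 DHS list (30.8% over the genome) and 5 in the day 2 list (56.8%).

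PPARgamma at Cebpb was listed on both days at chr2:167516671-167518108 and chr2:167519294-167520138 within the RNA Pol II stretch. It was also listed on both days at chr2:167527446-167528273, where DHS appeared on days 2 and 6, and at chr2:167548812-167549921 and chr2:167601701-167602688. On day 6 alone it was at chr2:167513080-167513689, chr2:167521740-167522605 and chr2:167569512-167570098, in no DHS list, and on day 2 alone at chr2:167581202-167581688. Of the 8 day 6 peaks here, 2 lay in the day 6 DHS list and 4 in the day 2 list.

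These PPARgamma peaks rarely met C/EBPbeta. On day 2, 2 of 9 lay in the C/EBPbeta list of that day, against 68.6% over the genome. Of the 15 day 6 peaks, 2 lay in the day 2 C/EBPbeta list (49.6%) and 1 in that of 4 hours (38.6%). The meeting points on day 2 were chr7:35911978-35912663 at Cebpa and the left site of the 15-list region at Cebpb.

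In each window 1 region in the greatest number of lists, the widest where several tied, was compared with the genome by its presence across all 19 lists. At Cebpa 2 regions tied at 7 lists, and at Cebpd 3 tied at 9, so the counts depend on which one is taken: the other Cebpa region, at 8.7 kb, had the rarer pattern given above. The Cebpa anchor region shared its pattern with 1178 other regions, the 3 widest being chr3:143864520-143869084, chr9:75255264-75259119 and chr11:98797396-98800786. The 15-list region of Cebpb shared it with 3 others, chr9:22749666-22750707, chr9:67382023-67382927 and chr9:45869447-45870114. No other region had the pattern of Cebpd's chr16:15958543-15959553, and the 3 most alike, each differing in 1 list, were chr15:67195563-67197170, chr14:66357464-66358914 and chr8:11261831-11263038.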

How the data were processed

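The deposited data used here are 19 peak lists, 6 of DHS-seq and 13 of ChIP-seq; the input sample was not analysed here. Per the file headers and contents, the authors' lists give chromosome, start and end of each peak in base pairs (other than these positions they hold no score, height or read count). The build is mm9, per the submitters' processing notes. Peak caller, threshold and depth are not given in the sources used here, so only list length is given beside the counts. What sets the length of each list was not tested. The shortest peak is 150 bp in the DHS lists of days 1 and 6 and 251 bp in the other DHS lists.

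Peaks touching a window by 1 bp were taken, and starts are printed counted from 1. Peaks overlapping by at least 1 bp across the lists compared were merged into regions, scored as present or absent in each list over the whole genome. Named regions are those with RNA Pol II, 3 or more factors at 4 hours, all 6 DHS lists or PPARgamma, at most 12 per window (those in most lists first); others were named after their values were seen. The anchor peaks and the joining of RNA Pol II peaks within 1000 bp were also chosen after the data were seen. The windows and rules were chosen with earlier results of these data known. The merging of peaks and the calls of regions gained, lost or shared were tested on simulated lists with well-separated sites. Closely spaced peaks and the other calculations were not tested in this way. Alternatives were an overlap of 50% of the shorter peak, merging up to 500 bp, peaks set to 200 bp, only the wider peaks of a list, equal list length by width, and the middle part of each window. Python 3.11.15 and Matplotlib 3.10.9 were used.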

Additional observations from a re-analysis of the deposited data

How the results depend on the processing

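Of 80 alternative counts, 53 stayed within 1.5 times the reported one and 27 moved beyond it. Among all 199 alternatives, which include counts of single lists, a further 56 moved. Stat5a at Cebpd went from 6 peaks to 2 in the middle part and 1 with only the wider peaks. DHS of 4 hours at Cebpb went from 17 to 11 and 8 in the same order. PPARgamma on day 6 went from 7 to 4 at Cebpa and from 8 to 6 at Cebpb with only the wider peaks. The cause was not tested beyond the fewer peaks or joined regions that each alternative makes by construction. With only the wider peaks of a list kept, DHS regions gained by 4 hours were 2 at Cebpa and 4 at Cebpb, and C/EBPbeta regions gained were 1 at Cebpa, 3 at Cebpb and 1 at Cebpd. C/EBPbeta regions lost were then 0, regions with 3 or more factors 0 at Cebpb and 0 at Cebpd, and the peaks of all lists 21 at Cebpa, 73 at Cebpb and 24 at Cebpd. At equal list length by width, DHS regions gained were 0 at Cebpa, 3 at Cebpb and 0 at Cebpd, C/EBPbeta regions gained 1 at each of Cebpa, Cebpb and Cebpd, DHS regions lost 5 and C/EBPbeta regions lost 2, and regions with 3 or more factors 0 at Cebpb and 0 at Cebpd. The excess of gained over lost DHS regions was therefore not kept at equal list length. That setting brings gained and lost near balance over the genome by construction, so the reversed order of these few regions shows no direction. Merging peaks up to 500 bp apart gave 6 DHS regions gained at Cebpb, 1 RNA Pol II region gained in the 3 windows and 4 regions with 3 or more factors at Cebpb. Peaks set to 200 bp gave 5 RNA Pol II regions lost. The middle part of the window held 88 peaks at Cebpb and 28 at Cebpd. An overlap of 50% of the shorter peak moved none of the counts. Joining RNA Pol II peaks within 500 bp, an alternative added after the data were seen, gave a longest stretch of 5851 bp at Cebpb, which then starts beyond the anchor peak, and 5151 bp at Cebpd. With lists of equal length, also tried later for day 6, DHS regions gained by day 6 were 3 at Cebpa, 3 at Cebpb and 1 at Cebpd. Leaving out the shortest DHS peaks of days 1 and 6, also added later, changed no count of DHS regions gained or lost by 4 hours. No paired analysis was possible because each group has 1 library and the labels carry no replicate numbers. Depth is unknown, so a peak missing from a short list does not show that a site was closed or unbound.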
